A study of Homo sapiens with 12 samples.

Results

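The 5 CEACAM adhesion molecule genes CEACAM1, CEACAM3, CEACAM4, CEACAM6 and CEACAM8 were followed in HL-60 cells during treatment with all-trans retinoic acid (ATRA). They were taken by gene symbol from the per-gene read counts, which list 26364 genes. The rule that names them uses no measured value, but the members were chosen with earlier results of these data known. HL-60 is a human leukemia line of promyelocyte type, and ATRA, which activates retinoic acid receptors, drives it toward the granulocyte. The 12 bulk RNA-seq libraries comprise 3 replicates each of cells before ATRA (0 h) and cells kept in 1 µM ATRA for 4 h, 2 d and 4 d, all grown in serum-containing medium. Untreated cells cultured for the same times were not analysed here, so time in ATRA and time in culture cannot be told apart. All groups are the same cell line, and whether replicates were separate cultures is not stated in the labels, so p-values measure only the spread between these libraries.

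CEACAM proteins are immunoglobulin-superfamily receptors through which cells bind each other and through which granulocytes meet bacteria. The members differ in how they are held in the membrane and in what they signal. CEACAM1 spans the membrane and can carry inhibitory ITIM motifs that recruit the phosphatases SHP-1 and SHP-2. CEACAM3 and CEACAM4 span it with activating ITAM-like tails, and CEACAM3 drives uptake of bacteria by neutrophils. CEACAM6 and CEACAM8 have no cytoplasmic tail and sit on a glycosylphosphatidylinositol (GPI) anchor, and CEACAM8 is a surface and specific-granule marker of granulocytes.

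The genes lie in 1 cluster on chromosome 19. On GRCh38 with GENCODE release 29 they run in the order CEACAM4 (41618971 to 41627074, minus strand), CEACAM6 (41750977 to 41772208, plus), CEACAM3 (41796437 to 41811553, plus), CEACAM1 (42507304 to 42561234, minus) and CEACAM8 (42580241 to 42595055, minus). The deposited counts were made on hg19, and these coordinates were not used to count anything. The genes resemble each other in the 150 bases upstream of their RefSeq starts, where identity between 2 members ran between 53.6% for CEACAM1 and CEACAM3 and 75.8% for CEACAM4 and CEACAM6. The longest stretch found in all 5 windows had 7 bases, and 4 of the 5 continued it to 14 bases. The stretch is printed with its surroundings, 30 bases a gene, because it separates CEACAM1 from the other members. Sequences are RefSeq, GRCh38.p14, 5′ to 3′ on the strand of the gene, and capitals mark the stretch.
CEACAM1: ggtaggaaTGAGAGGagaggaaacagagct
CEACAM3: ggcaaaacTGAGAGGGGAGGGGacagagag
CEACAM4: ggcagaaaTGAGAGGGGAGGGGcagagggg
CEACAM6: gacagaaaTGAGAGGGGAGGGGatagagga
CEACAM8: ggcaggacTGAGAGGGGAGGGGacagagag
These lines cover chr19:42528547-42528576 (minus) for CEACAM1, chr19:41796476-41796505 (plus) for CEACAM3, chr19:41627143-41627172 (minus) for CEACAM4, chr19:41755427-41755456 (plus) for CEACAM6 and chr19:42594993-42595022 (minus) for CEACAM8. The stretch began 87, 103, 90, 95 and 90 bases upstream of the start of CEACAM1, CEACAM3, CEACAM4, CEACAM6 and CEACAM8. GENCODE places a start of its own inside or before the window of some members, and it counts 28, 150, 0, 109 and 131 of the 150 bases as exon of these 5 genes in the same order.

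The 7-base stretch TGAGAGG occurred on either strand in 2.92% of the 35116 RefSeq windows of the same length. The 14-base stretch TGAGAGGGGAGGGG occurred in 7 of them, which belong to CEACAM21, CEACAM3, CEACAM4, CEACAM5, CEACAM6, CEACAM7 and CEACAM8. Of motifs searched by their letters on both strands, AGGTCA (a half-site of the retinoic acid receptor) was present once each in CEACAM3, 80 bases upstream, and CEACAM4, 68 bases upstream, and in 7.63% of all windows. GAGGAA (the core bound by PU.1) was present once each in CEACAM1 and CEACAM3, and in 14.8% of all windows. CACGTG (an E-box) and TATAAA (a site of TBP) were present in CEACAM6 alone of the 5, and in 4.57% and 6.71% of all windows. TTGCNNAA (a C/EBP core) had no match in the 5 windows and was present in 5.02% of all. These matches did not overlap each other, and they describe the letters of the windows only.

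Reads assigned to genes ranged between 7866757 and 13658177 per library, and 22.9% to 35.6% of a library's reads fell in no gene row. Libraries differed from the others of their own time along the GC content of transcripts, in a fit that also held transcript length. There, 0 h replicate 2, 4 h replicate 3 and 4 d replicate 1 had slopes of 0.486, 0.362 and 0.311 log2 units per 10 points of GC. The other 9 lay between -0.351 and 0.061. A high library lowers the slopes of its group mates, and the slopes do not compare times. The longest protein-coding transcripts of CEACAM8, CEACAM6 and CEACAM1 hold 45.7%, 46.3% and 47.2% GC, and those of CEACAM3 and CEACAM4 hold 56.2% and 58.0%. In 4 h replicate 1, 22265 genes had a read, against 15198 to 15798 in the other libraries. Results that change without these libraries are given with and without them.

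Levels are given as CPM, read counts scaled to a common library depth with TMM factors, which is suited to comparing 1 gene between libraries. Fold changes are log2 values ± SE from edgeR's quasi-likelihood fit to all 12 libraries. The fit gives no SE itself, so the SE here is the absolute log2 fold change divided by the square root of the test's F statistic. Calls were made where the p-value, adjusted by Benjamini-Hochberg over the 12671 genes that passed the low-count filter, was under 0.05. All 5 members passed that filter. In bulk RNA, fewer cells that express a gene and less of its RNA per cell cannot be told apart.

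CEACAM1, the inhibitory receptor, showed the largest rise of the 5. Its level was 21, 15.4 and 19.5 CPM in 0 h replicates 1, 2 and 3, 17.1, 16.3 and 14.7 CPM at 4 h, 227, 245 and 242 CPM at 2 d, and 505, 613 and 613 CPM at 4 d. The 0 h and 4 h libraries overlapped, every 2 d library lay above all of them, and every 4 d library lay above every 2 d library. At 4 d, CEACAM1 averaged 577 ± 62.4 CPM, against 18.6 ± 2.93 CPM at 0 h (SD, n = 3 each), which is 31-fold higher with a log2 fold change of 4.95 ± 0.19 (edgeR adjusted p = 6.97e-10). It stood at rank 125 of the 12671 tested genes by log2 fold change at 4 d and at rank 104 at 2 d, when its log2 fold change over 0 h was 3.67 ± 0.18 (edgeR adjusted p = 1.12e-08). Values are per gene and do not separate the isoforms of CEACAM1 with and without ITIM motifs.

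**Figure D1:**
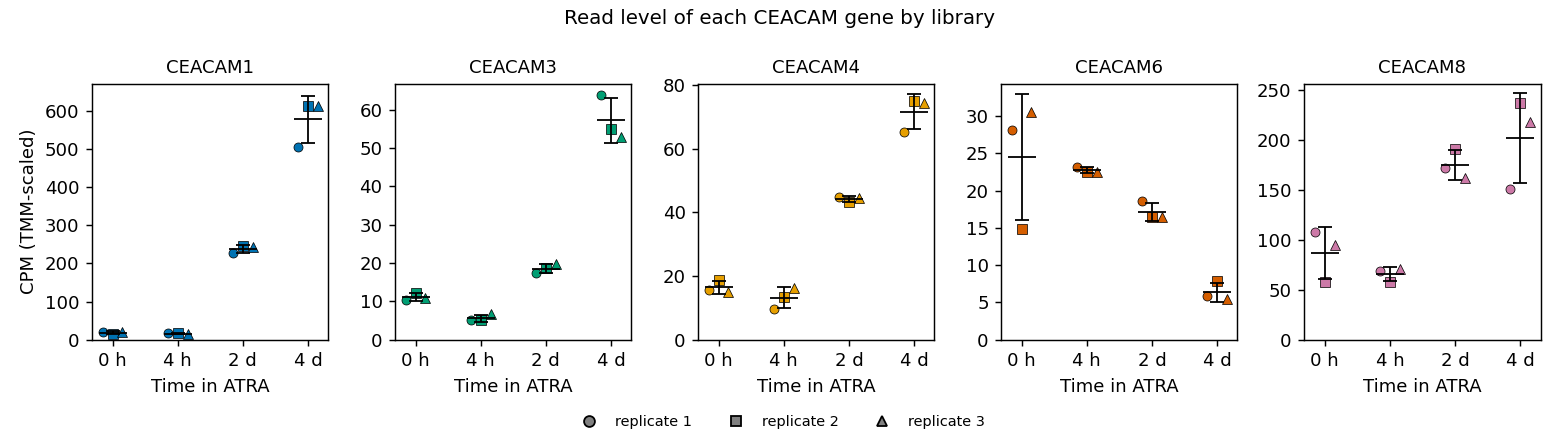
Level of each CEACAM gene in CPM after TMM scaling (y axes, linear, starting at 0, with a scale of their own per gene) at 0 h, 4 h, 2 d and 4 d in ATRA (x axis). Points are libraries with a symbol per replicate, and bars are the mean ± SD of 3 libraries: CEACAM1 climbs to 505 to 613 CPM at 4 d while CEACAM6 declines to 5.4 to 7.83 CPM.

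CEACAM3, the activating receptor that takes up bacteria, was the only member called at 4 h over 0 h, where 6.23% of tested genes were called. It had 10.3, 12.3 and 10.9 CPM in the 0 h libraries, 5.04, 5.15 and 6.61 CPM at 4 h, 17.3, 18.6 and 19.7 CPM at 2 d, and 63.8, 55 and 52.8 CPM at 4 d. No 2 neighbouring times overlapped, with the 4 h libraries below and the 2 d and 4 d libraries above those of 0 h. CEACAM3 averaged 5.6 ± 0.878 CPM at 4 h, against 11.2 ± 1.02 CPM at 0 h, a ratio of 0.502 (log2 fold change -0.99 ± 0.16, edgeR adjusted p = 0.00332). Fitted to the 6 libraries of 4 h and 0 h alone, the same difference missed the threshold (edgeR adjusted p = 0.0523). CEACAM3 was higher at 2 d than at 0 h by 0.73 ± 0.16 on the log2 scale (edgeR adjusted p = 0.00283). At 4 d it averaged 57.2 ± 5.82 CPM, 5.12-fold above 0 h (log2 fold change 2.36 ± 0.16, edgeR adjusted p = 6.4e-08).

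CEACAM4, the second receptor with an activating tail, rose at 2 d and again at 4 d. It had 15.5, 18.7 and 15.1 CPM in the 0 h libraries, 9.71, 13.4 and 16.4 CPM at 4 h, 44.9, 43.3 and 44.4 CPM at 2 d, and 65.3, 75 and 74.5 CPM at 4 d. The 4 h libraries overlapped those of 0 h, and the 2 d and 4 d libraries lay above both and apart from each other. At 4 d, CEACAM4 averaged 71.6 ± 5.47 CPM, against 16.5 ± 1.99 CPM at 0 h, 4.34-fold higher (log2 fold change 2.12 ± 0.18, edgeR adjusted p = 4.98e-07). Its log2 fold changes over 0 h were 1.42 ± 0.18 at 2 d (edgeR adjusted p = 4.93e-05) and -0.32 ± 0.18 at 4 h (edgeR adjusted p = 0.267).

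CEACAM6, a GPI-anchored member also made by epithelia, was the only one of the 5 to fall at 4 d over 0 h, as 29.7% of tested genes did. Its level was 28.1, 14.9 and 30.6 CPM in the 0 h libraries, 23.2, 22.5 and 22.5 CPM at 4 h, 18.6, 16.5 and 16.5 CPM at 2 d, and 5.92, 7.83 and 5.4 CPM at 4 d. All 4 d libraries lay below every other library, while 0 h replicate 2 lay below every library of 4 h and 2 d and apart from its group mates. At 4 d, CEACAM6 averaged 6.39 ± 1.28 CPM, against 24.5 ± 8.43 CPM at 0 h, 3.84-fold lower (log2 fold change -1.94 ± 0.25, edgeR adjusted p = 1.79e-05). The difference of 2 d from 0 h was not called (log2 fold change -0.51 ± 0.23, edgeR adjusted p = 0.0982), and without 0 h replicate 2 it was (-0.77, edgeR adjusted p = 0.003). From 57 to 79 reads stood behind the 4 d values and 134 to 314 behind those of the other times.

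CEACAM8, the GPI-anchored granulocyte marker, rose by 2 d and no further change was called after that. It had 108, 58.2 and 94.7 CPM in the 0 h libraries, 69.1, 58.2 and 70.5 CPM at 4 h, 172, 191 and 162 CPM at 2 d, and 151, 237 and 218 CPM at 4 d. The 2 d and 4 d libraries overlapped each other and lay above all libraries of 0 h and 4 h, with 4 d replicate 1 the lowest of its group. At 4 d, CEACAM8 averaged 202 ± 45.3 CPM, against 87.1 ± 25.9 CPM at 0 h, 2.32-fold higher (log2 fold change 1.21 ± 0.23, edgeR adjusted p = 0.000485). At 2 d it was already higher than at 0 h by 1.01 ± 0.23 on the log2 scale (edgeR adjusted p = 0.00396). The step of 4 d over 2 d was 0.21 ± 0.22 on the log2 scale (edgeR adjusted p = 0.536). It was called once 3 libraries that stand apart were left out together, 0 h replicate 2 and 4 d replicate 1 with 4 h replicate 3 (0.39, edgeR adjusted p = 0.0121) or with 4 h replicate 1 (0.38, edgeR adjusted p = 0.038). Over all genes, 3374 were called for this step with all 12 libraries and 5549 in the former of these fits.

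Set against all genes, 1 of the 5 members was called at 4 h over 0 h, where 6.23% of tested genes were. The call was a fall, and 4.23% of tested genes fell. The log2 fold changes of CEACAM1, CEACAM6 and CEACAM8 at 4 h were -0.22 ± 0.16, -0.11 ± 0.23 and -0.40 ± 0.23 (edgeR adjusted p = 0.405, 0.774 and 0.271). At 2 d over 0 h, 4 of 5 members were called, all higher, where 35.6% of genes were called and 16.9% were higher. At 4 d over 0 h all 5 were called, where 57.8% of genes were, with 4 members higher against 28.1% of genes and 1 lower against 29.7%. With offsets for GC content and transcript length, the 4 d log2 fold changes were 5.01 for CEACAM1, 2.71 for CEACAM3, 2.50 for CEACAM4, -1.70 for CEACAM6 and 1.56 for CEACAM8, and all 5 stayed called. The offsets were fitted to each library's difference from the mean over all 12 libraries, so they also act on differences between times. The median log2 fold change of the 5 members was -0.32, 1.01 and 2.12 at 4 h, 2 d and 4 d over 0 h, and that of all tested genes lay within 0.02 of 0 in each. These 3 comparisons share the 0 h libraries. Every 2 d library lay above every 0 h library in 4 members and 26% of genes, and below in 0 members and 25% of genes. At 4 d over 0 h the libraries were wholly above in 4 members and 29.1% of genes, and wholly below in 1 member and 29.9% of genes. At 4 h over 0 h they were wholly below in 1 member and 12.5% of genes. Over the 4 times together, all 5 members varied, with edgeR adjusted p-values of 2.29e-10 for CEACAM1, 7.59e-09 for CEACAM3, 1.73e-07 for CEACAM4, 7.24e-05 for CEACAM6 and 8.3e-05 for CEACAM8, where 63.2% of tested genes were called.

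The steps between treated times came from the same fit, and 1 step was not tested against the other. CEACAM1, CEACAM3 and CEACAM4 were called in both. At 2 d over 4 h, 4 of 5 members were called, all higher, where 34.5% of genes were called and 16.5% were higher. The log2 fold changes of this step were 3.89 ± 0.18 for CEACAM1, 1.72 ± 0.16 for CEACAM3, 1.74 ± 0.18 for CEACAM4 and 1.41 ± 0.23 for CEACAM8, with edgeR adjusted p-values of 3.29e-08, 5.44e-06, 1.08e-05 and 0.000405. CEACAM6 changed by -0.40 ± 0.23 (edgeR adjusted p = 0.195) although its 2 d and 4 h libraries did not overlap. Wholly below at 2 d were 1 member and 27.3% of genes, and wholly above were 4 members and 25.8% of genes. That difference was called in the fit to the 6 libraries of this step (edgeR adjusted p = 0.0315) and without 0 h replicate 2 (edgeR adjusted p = 0.0479).

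At 4 d over 2 d, 4 of 5 members were called, where 26.6% of genes were. CEACAM3, CEACAM1 and CEACAM4 were higher by 1.63 ± 0.15, 1.28 ± 0.16 and 0.70 ± 0.17 on the log2 scale (edgeR adjusted p = 1.72e-05, 0.000111 and 0.00918), and 13.1% of genes were higher. CEACAM6 was lower by this step (log2 fold change -1.43 ± 0.25, edgeR adjusted p = 0.00106), and 13.5% of genes were lower. The 4 d libraries lay wholly below those of 2 d in 1 member and 24.7% of genes, and wholly above in 3 members and 23.3% of genes.

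**Figure D2:**
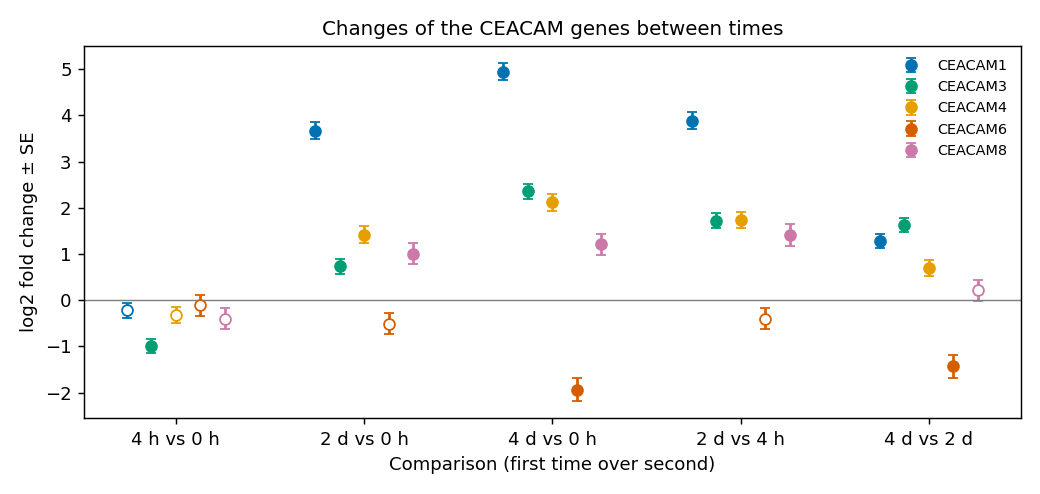
Log2 fold change ± SE (y axis) of the 5 CEACAM genes in each comparison, first time over second (x axis), from the edgeR fit to 12 libraries. Filled points passed an adjusted p under 0.05 and open points did not: CEACAM3 alone is filled at 4 h, and CEACAM6 alone is filled below 0 at 4 d.

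The members' courses were compared directly through the ratio of 2 members' reads within a library, which library scaling does not touch. Of the 10 pairs, 9 had ratios that differed over the 4 times by an exact permutation test over all 15400 assignments of the libraries to times, with adjusted p-values over the 10 pairs between 0.000325 and 0.00325. CEACAM1 over CEACAM6 had log2 ratios of -0.42, 0.04 and -0.65 at 0 h, -0.44, -0.46 and -0.62 at 4 h, 3.61, 3.89 and 3.87 at 2 d, and 6.40, 6.28 and 6.82 at 4 d. CEACAM6 had more reads than CEACAM1 in 5 of the 6 libraries of 0 h and 4 h and fewer in all 6 of 2 d and 4 d. At 4 d the mean ratio lay 6.84 log2 units above that of 0 h. The ratio differed over the 4 times (exact permutation test over the 4 times, adjusted p = 0.000758, n = 12 libraries).

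CEACAM1 over CEACAM8 averaged a log2 ratio of -2.19 ± 0.24 at 0 h, -2.03 ± 0.22 at 4 h, 0.45 ± 0.12 at 2 d and 1.54 ± 0.19 after 4 d (exact permutation test, adjusted p = 0.000649). CEACAM8 thus had more reads than CEACAM1 in all 6 libraries of 0 h and 4 h and fewer in all 6 of 2 d and 4 d. The 2 GPI-anchored members parted as well: CEACAM6 over CEACAM8 had a log2 ratio of -4.96 ± 0.34 at 4 d, against -1.84 ± 0.19 at 0 h (exact permutation test over the 4 times, adjusted p = 0.000433).

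The 2 members with activating tails moved by similar amounts at 4 d but not at the times between. CEACAM3 over CEACAM4 had a log2 ratio of -0.56 ± 0.08 at 0 h, -1.21 ± 0.23 at 4 h, -1.25 ± 0.11 at 2 d and -0.32 ± 0.25 after 4 d (exact permutation test over the 4 times, adjusted p = 0.00292). All 4 h and 2 d libraries lay below all libraries of 0 h and 4 d. CEACAM4 over CEACAM8 was the pair whose ratio did not pass, with log2 ratios of -2.36 ± 0.63 at 0 h, -2.35 ± 0.41 at 4 h, -1.98 ± 0.15 at 2 d and -1.47 ± 0.24 after 4 d (exact permutation test, adjusted p = 0.0814). The 0 h libraries alone spread between -2.80 and -1.63 in it, with replicate 2 at the upper end. The pair passed with offsets for GC content and transcript length (adjusted p = 0.00403, exact permutation test) and without 0 h replicate 2 (adjusted p = 0.00682, exact permutation test). Those offsets also act on differences between times.

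**Figure D3:**
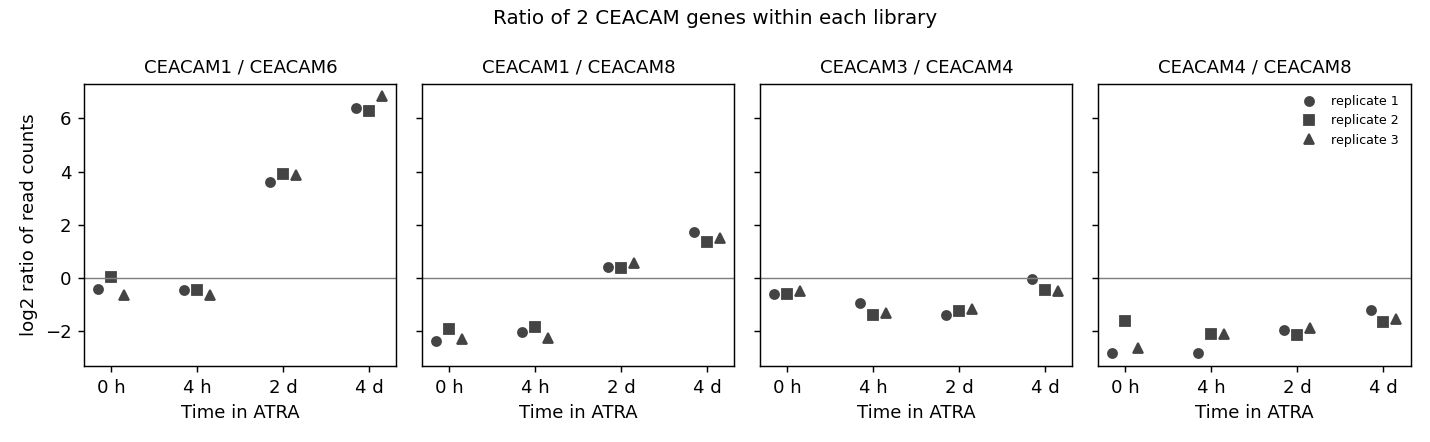
Log2 ratio of the reads of 2 CEACAM genes within each library (y axis, shared by the 4 panels) at each time in ATRA (x axis), with 1 symbol per replicate. The line marks equal reads: CEACAM1 over CEACAM8 crosses it between 4 h and 2 d, while CEACAM4 over CEACAM8 stays between -2.83 and -1.21.

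Counted together, the 5 genes held 158 ± 33.8 CPM at 0 h, 124 ± 7.57 CPM at 4 h, 493 ± 19.1 CPM at 2 d and 914 ± 107 CPM at 4 d. Summed to 1 feature, they were higher by 2.53 ± 0.19 log2 units at 4 d over 0 h (edgeR adjusted p = 1.37e-07) and by 0.89 ± 0.18 at 4 d over 2 d (edgeR adjusted p = 0.00262). At 4 h over 0 h the sum changed by -0.35 ± 0.18 (edgeR adjusted p = 0.222). CEACAM8 held 54.4% ± 5.27 of the family's reads at 0 h, 53.3% ± 2.76 at 4 h, 35.5% ± 1.92 at 2 d and 21.9% ± 2.52 after 4 d. CEACAM1 held 11.9% ± 0.839, 13% ± 1.59, 48.3% ± 1.42 and 63.2% ± 0.964 at the same times.

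CEACAM6 held 0.701% ± 0.124 of the reads of the 5 genes at 4 d, against 15.2% ± 2.7 at 0 h. CEACAM3 and CEACAM4 held 6.37% ± 1.47 and 7.86% ± 0.348 at 4 d, against 7.44% ± 2.51 and 11% ± 4.07 at 0 h. The plot of the make-up by library shows that the 3 replicates of a time had the same member in first place.

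**Figure D4:**
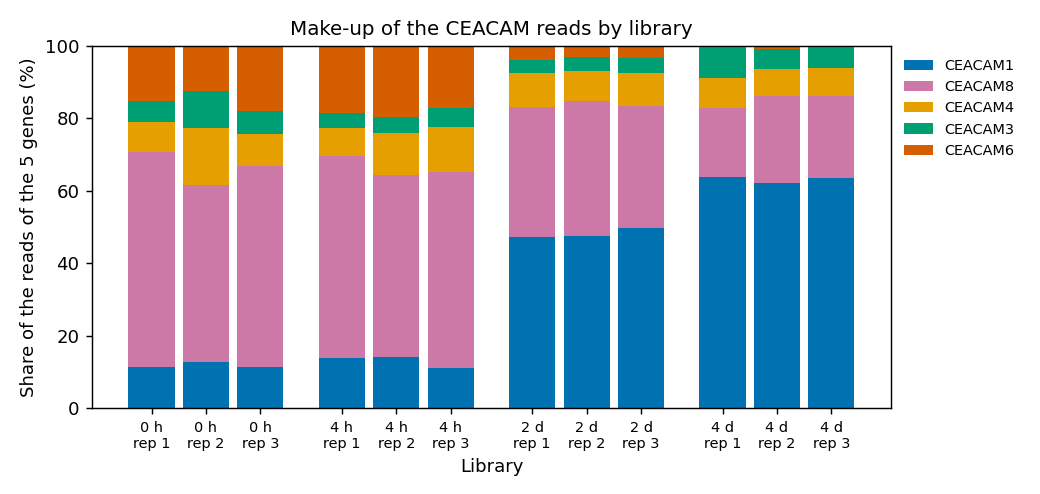
Share of the reads of the 5 CEACAM genes held by each gene (y axis, percent) in each of the 12 libraries (x axis, by time and replicate). CEACAM8 is the largest part in every 0 h and 4 h library and CEACAM1 in every 2 d and 4 d library, and CEACAM6 is a thin band at 4 d (0.56% to 0.793%).

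Levels were also set between genes per kilobase of the longest protein-coding transcript. At 0 h the order was CEACAM8 with 37.8 ± 11.2 CPM per kb, CEACAM4 with 13.7 ± 1.69, CEACAM6 with 9.08 ± 3.1, CEACAM3 with 8.48 ± 0.773 and CEACAM1 with 5.3 ± 0.832 CPM per kb. CEACAM6 overlapped both CEACAM3 and CEACAM1 there, and the other neighbours did not overlap. At 4 h CEACAM8 led with 28.6 ± 2.9 CPM per kb, CEACAM4 (10.9 ± 2.77) and CEACAM6 (8.42 ± 0.139) overlapped, and so did CEACAM1 (4.56 ± 0.357) and CEACAM3 (4.26 ± 0.663 CPM per kb).

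At 2 d CEACAM8 had 75.9 ± 6.5 CPM per kb and CEACAM1 67.7 ± 2.7, without overlap, followed by CEACAM4 with 36.7 ± 0.681, CEACAM3 with 14.1 ± 0.95 and CEACAM6 with 6.37 ± 0.445 CPM per kb. At 4 d the order was CEACAM1 with 164 ± 17.3 CPM per kb, CEACAM8 with 87.7 ± 19.7, CEACAM4 with 59.4 ± 4.51, CEACAM3 with 43.5 ± 4.44 and CEACAM6 with 2.36 ± 0.474 CPM per kb, and no neighbours overlapped. The order of the means was the same at each time when the length of all annotated exons was used instead, with CEACAM1 at 104 ± 11.3 and CEACAM3 at 18.6 ± 1.89 CPM per kb at 4 d. The distances moved with the length used: at 2 d, CEACAM8 then had 68.6 ± 5.89 and CEACAM1 43.1 ± 1.76 CPM per kb. Overlap moved too. With that length, CEACAM1 (91.5 to 111 CPM per kb) and CEACAM8 (59.1 to 92.9) overlapped at 4 d. So did CEACAM3 (5.61 to 6.4 CPM per kb) and CEACAM6 (5.4 to 6.09) at 2 d.

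Reads can be shared between paralogs, while neither the read length nor the strand setting of the counting is known from the sources used here. Of the positions in the longest protein-coding transcript at which a read of 50 bases could start, 4.73% in CEACAM1, 5.6% in CEACAM3, 1.82% in CEACAM4, 7.92% in CEACAM6 and 4.43% in CEACAM8 had the same bases in a transcript of another gene. With 100 bases these shares were 0.819% in CEACAM1 and 1.96% in CEACAM6 and 0% in the other 3. With 150 bases only CEACAM6 kept any, 0.0392%. At both of these lengths, all shared positions of CEACAM6 were in AC243967.1, an annotated read-through gene, and in no other gene. Those of CEACAM1 at 100 bases were 18 in CEACAM3 and 10 in the antisense gene LIPE-AS1. At 50 bases, 112 positions of CEACAM6 (4.22%) matched AC243967.1. The matches of CEACAM8 at 50 bases included genes outside the family, such as MVP with 28 positions. At 50 bases, 80 positions of CEACAM1 (2.31%) matched CEACAM3, and 25 positions of CEACAM3 (1.97%) matched CEACAM1. Reads with inexact matches were not covered by this search.

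Among other family genes that share such positions with a member, CEACAM21 was the only one found for CEACAM4, with 21 positions (1.82%) at 50 bases, and it had 739 reads over all 12 libraries. CEACAM5, the carcinoembryonic antigen of epithelia, had 42 reads over all 12 libraries and at most 10 in 1 library, and it shared positions with the members other than CEACAM4. The antisense gene LIPE-AS1 overlaps 185 exon bases of CEACAM1, 3.35% of its exons, and reads of this pair cannot be told apart there without strand. LIPE-AS1 itself had 3, 3, 12 and 31 reads over the 3 libraries of 0 h, 4 h, 2 d and 4 d. The read-through gene AC243967.1 shares 172 exon bases (5.64%) with CEACAM6.

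Outside the 5 members, 2 of 19 further genes of the wider family passed the low-count filter. CEACAM21 rose to 12 ± 1.65 CPM at 4 d, against 3.18 ± 0.204 CPM at 0 h (log2 fold change 1.92 ± 0.21, edgeR adjusted p = 5.95e-06). It carries the 14-base stretch, as does CEACAM6, which fell, while CEACAM1, which rose most of the 5 members, does not. A link between the stretch and the changes was not tested. CEACAM19 had 12.4 ± 7.21 CPM at 4 d, against 5.84 ± 2.98 CPM at 0 h (log2 fold change 1.08 ± 0.44, edgeR adjusted p = 0.0497), and its groups overlapped, with 197, 66 and 118 reads at 4 d and 45, 102 and 42 reads at 0 h. CEACAM16, CEACAM18, CEACAM20 and the pseudogene CEACAM22P had 3 to 10 reads each over all libraries. The 11 pregnancy-specific glycoprotein (PSG) genes had 0 to 9 reads each.

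Known ligands and partners of the members were higher at 4 d where they passed the low-count filter. All 3 tested genes of 6 listed were higher at 4 d than at 0 h, where 28.1% of all tested genes were. ITGAM, the alpha chain of the integrin Mac-1 with which neutrophil CEACAMs associate, had 395 ± 4.56 CPM at 4 d, against 53.8 ± 5.77 CPM at 0 h (log2 fold change 2.88 ± 0.15, edgeR adjusted p = 6.89e-09). ITGB2, its beta chain, had 3240 ± 130 CPM, against 639 ± 76.2 CPM (2.34 ± 0.2, edgeR adjusted p = 5.77e-07). The third was LGALS3, a galectin, with a log2 fold change of 0.82 ± 0.16 (edgeR adjusted p = 0.000751). It was lower at the earlier times than at 0 h, with log2 fold changes of -0.71 at 4 h and -1.16 at 2 d (edgeR adjusted p = 0.0235 and 0.000201). ITGAM was lower at 4 h as well (log2 fold change -0.53, edgeR adjusted p = 0.0419). HAVCR2, CD209 and SELE were below the filter.

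Of 23 tested genes of 24 listed that act downstream of ITIM or ITAM tails, 12 were called at 4 d over 0 h, all higher, where 57.8% of all tested genes were called and 28.1% were higher, with a median log2 fold change of 0.43 beside 0 for all tested genes. SRC, a kinase that phosphorylates such tails, had 27.8 ± 6.07 CPM at 4 d, against 2.81 ± 0.375 CPM at 0 h (log2 fold change 3.30 ± 0.23, edgeR adjusted p = 7.8e-08). FGR, a Src-family kinase of myeloid cells, had 973 ± 304 CPM, against 137 ± 46.5 CPM (2.82 ± 0.27, edgeR adjusted p = 1.38e-06). At 4 h, 2 of the 23 were higher, and 9 were at 2 d, each over 0 h, where 2% and 16.9% of all tested genes were higher.

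Genes that assemble the GPI anchor, which CEACAM6 and CEACAM8 need, were called in both directions. Of 28 tested genes of 29 listed, 3 were higher and 8 lower at 4 d over 0 h, where 28.1% of all tested genes were higher and 29.7% lower, with a median log2 fold change of -0.28. The share that fell was near that of all genes. MPPE1, which remodels the anchor, had 48.7 ± 1.48 CPM at 4 d, against 21.6 ± 3.76 CPM at 0 h (log2 fold change 1.17 ± 0.14, edgeR adjusted p = 1.22e-05), and PIGB, a mannosyltransferase, had 16.7 ± 1.54 CPM, against 11.4 ± 1.78 CPM (0.55 ± 0.17, edgeR adjusted p = 0.012). PIGW, an acyltransferase, fell to 3.47 ± 1.38 CPM at 4 d, against 13.3 ± 2.47 CPM at 0 h (-1.93 ± 0.28, edgeR adjusted p = 5.95e-05). PIGU, a subunit of the transamidase that attaches the anchor, fell to 14.7 ± 3.33 CPM, against 44.7 ± 2.03 CPM (-1.61 ± 0.19, edgeR adjusted p = 8.42e-06).

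CEACAM8 is stored in specific granules, and genes of that granule were called in both directions. Of 14 tested genes of 16 listed, 5 were higher and 5 lower at 4 d over 0 h, where 28.1% and 29.7% of all tested genes were, with a median log2 fold change of 0.13. ORM1, an acute-phase glycoprotein, and CYBB, the catalytic subunit of the NADPH oxidase, rose most (3.37 ± 0.3 and 3.14 ± 0.21, edgeR adjusted p = 7.16e-07 and 6.28e-08). LTF, lactoferrin, had 2.34 ± 0.618 CPM at 4 d, against 18 ± 2.19 CPM at 0 h (-2.93 ± 0.24, edgeR adjusted p = 4.24e-07). LCN2, lipocalin, had 0.0911 ± 0.0874 CPM, against 0.801 ± 0.369 CPM (-2.93 ± 0.84, edgeR adjusted p = 0.00853), a level of few reads in both groups.

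**Figure D5:**
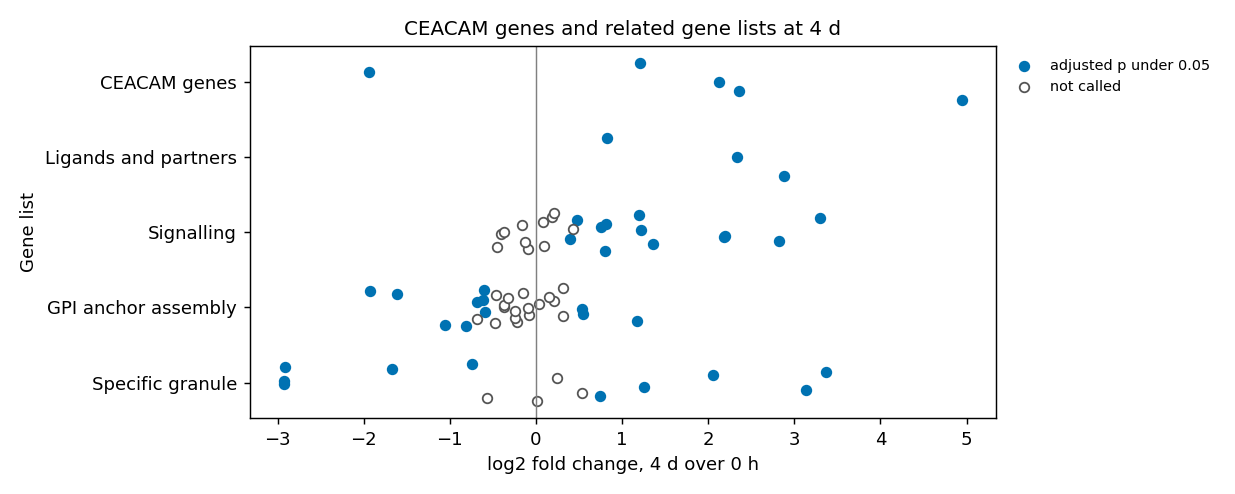
Log2 fold change at 4 d over 0 h (x axis) of each tested gene in the CEACAM group and 4 related gene lists (rows). Filled points passed an edgeR adjusted p under 0.05 and open points did not: no signalling gene that passed lies below 0, while GPI anchor and specific granule genes that passed lie on both sides.

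Markers of the cell state moved alongside the members, and their part in the members' changes was not tested. All 6 promyelocyte markers fell at 4 d over 0 h, as 29.7% of all tested genes did, with a median log2 fold change of -3.01. Their summed level ranged between 8240 and 9590 CPM in the 4 d libraries, against 30800 to 44000 CPM at 0 h. Among them ELANE, neutrophil elastase, had 90.8 ± 18 CPM at 4 d, against 2480 ± 1080 CPM at 0 h (log2 fold change -4.77 ± 0.36, edgeR adjusted p = 1.77e-07), and CTSG, cathepsin G, had 19.3 ± 2.93 CPM, against 503 ± 41.9 CPM (-4.70 ± 0.22, edgeR adjusted p = 3.47e-09).

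Among monocyte markers, CSF1R had 63.9 ± 3.54 CPM at 4 d, against 1.93 ± 0.103 CPM at 0 h (log2 fold change 5.04 ± 0.19, edgeR adjusted p = 6.97e-10). CD14 had 15 ± 1.58 CPM at 4 d, against 22.5 ± 2.17 CPM at 0 h (-0.58 ± 0.18, edgeR adjusted p = 0.0135), and VCAN, CD163 and MRC1 had no read at 4 d. The 5 eosinophil markers summed to 458 to 493 CPM at 4 d, against 5080 to 7710 CPM at 0 h. Of the 4 tested, PRG2, EPX and IL5RA fell and CLC rose, where 29.7% of all tested genes fell and 28.1% rose. The log2 fold changes were -4.67 ± 0.26 for PRG2, -2.21 ± 0.25 for EPX and 0.62 ± 0.17 for CLC (edgeR adjusted p = 1.32e-08, 5.71e-06 and 0.00718).

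Epithelial markers, named here because CEACAM1 and CEACAM6 are also epithelial genes, summed to 0.595 to 0.935 CPM at 4 d, against 0.276 to 1.07 CPM at 0 h, and none of the 6 passed the filter. KRT19, KRT20 and CDH1 had no read at 4 d. Lymphoid markers summed to 56 to 67.4 CPM at 4 d, against 62.3 to 85 CPM at 0 h. Of these, CD3E rose by 3.44 ± 0.4 and CD79A fell by 1.01 on the log2 scale (edgeR adjusted p = 8.62e-06 and 0.00382). The 5 erythroid and platelet markers had no read at 4 d or 0 h.

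Across the 12 libraries, Pearson's r between members' log2 CPM ran between 0.835 and 0.975 among CEACAM1, CEACAM3, CEACAM4 and CEACAM8, and between -0.89 and -0.618 for CEACAM6 with each of them. These are descriptions over libraries that fall into 4 times. Of 8743 other genes at a mean of at least 10 CPM, those most like CEACAM1 were VSIG4 (r = 0.9969), NLRC4, PARP14, SCPEP1 and BTG1. For CEACAM3 they were ARHGAP25 (r = 0.9934), STARD10, SH3D21, MAP3K12 and GAA, and for CEACAM4 they were SFXN5 (r = 0.9943), TNFRSF1B, ATOH8, LRRC25 and ITGB2. CEACAM8 was most like PGPEP1 (r = 0.9801), HEXA, CYSLTR1, IL16 and FOXO4.

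The genes most like CEACAM6 were GINS3 (r = 0.983), TTI1, GMNN, HAUS1 and PSIP1. GINS3 is a subunit of the replicative helicase complex and GMNN, geminin, restrains the licensing of replication origins. Their log2 fold changes at 4 d over 0 h were -1.44 and -1.32, beside -1.94 for CEACAM6. VSIG4, a complement receptor of the immunoglobulin superfamily, had a log2 fold change of 6.12 in the same comparison, beside 4.95 for CEACAM1.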

How the data were processed

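Bulk RNA-seq of 12 HL-60 libraries was used, 3 at each of 4 times. The deposited values are counts, whole reads per gene and library. Per the submitters' processing notes, the authors used FastQC, Trim Galore 0.6.7, HISAT2 2.1.0 with hg19 and HTSeq 1.99.2; annotation, strand setting and read length: not given in the sources used here. Rows of unassigned reads stayed out of library sizes, 14% to 28.1% without a feature, 2.74% to 3.9% ambiguous and 4.5% to 5.7% not uniquely aligned.

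Counts were filtered with filterByExpr, scaled by TMM and fitted as 1 mean per time to 12 libraries with edgeR 4.0.16 in R 4.3.3 (glmQLFit, glmQLFTest), with Benjamini-Hochberg adjustment over 12671 genes. Ratios of 2 members (0.5 added to each count) were tested with an exact permutation test of F over the 4 times (no sides), whose smallest p is 6.49e-05. CEACAM6 and CEACAM3 had the lowest counts, down to 57 and 55 reads in 1 library. The SE did not follow depth alone. At 4 d over 0 h it was 0.16 for CEACAM3, 0.25 for CEACAM6 and 0.23 for CEACAM8. Replicates differed by more than counting error (chi-square per degree of freedom 3.47 to 98), so none was taken as a repeat deposit. Same-numbered replicates were not treated as pairs.

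The members, gene lists and tests were chosen with earlier results of these data known. Genes named are the 5 members, other CEACAM and PSG genes with a read, up to 2 called genes of each list with the largest rise at 4 d and 2 with the largest fall, and the 5 genes most correlated with each member (log2 CPM, prior count 2). A few further marker genes were named after their values were seen. A result on the monocyte markers is not reported here. Alternatives were RLE factors, library totals, DESeq2 1.42.0, limma-voom (limma 3.58.1), other filters and thresholds, 6-library fits, the 20 most abundant genes left out, a replicate term, GC and length offsets, and libraries left out. Transcript lengths, GC content and shared bases came from GENCODE release 29 on GRCh38, in which 90.3% of the files' genes were matched by symbol, and promoters came from RefSeq GRCh38.p14. The length of all annotated exons was tried after seeing the data. The model was tested on simulated data for 4 d over 0 h. It recovered 37.9% of 103 genes changed by 1 log2 unit and 90.7% of 97 genes changed by 2, with 9 false calls. Changes of about 1 log2 unit or less can thus be missed.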

Additional observations from a re-analysis of the deposited data

How the results depend on the processing

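The number of members called stayed at 5 for 4 d over 0 h and over all times, and within 1.5 times the reported count for the other comparisons after 4 h, under every alternative run. At 4 h over 0 h the count was 1, and it was 0 with a fold of at least 2 or a fit to 6 libraries, and 2 in each of the fits that left out 0 h replicate 2 and 4 d replicate 1 along with either replicate 3 or replicate 1 of 4 h. The added call was CEACAM8 (log2 fold change -0.68 in both, edgeR adjusted p = 0.00162 and 0.015). Of the members' log2 fold changes under all alternatives, 634 kept direction and call, 10 gained a call, 4 lost one and 2 changed direction. The last were CEACAM6 at 4 h over 0 h, 0 without 0 h replicate 1 and 0.079 without 0 h replicate 3, against -0.11 with all libraries; leaving out single libraries gave -0.37 to 0.08. Replicate numbers did not pair the libraries: 6 of 18 same-numbered pairs had deviations correlated above 0.1 (range -0.813 to 0.677), and with replicate number as a block 1, 4, 5, 4 and 4 members were called at 4 h, 2 d and 4 d over 0 h, 2 d over 4 h and 4 d over 2 d. Over all genes, 790 were called at 4 h over 0 h (241 to 3192 under the alternatives), 4512 at 2 d over 0 h (2122 to 6761), 7330 at 4 d over 0 h (4460 to 8719), 4377 at 2 d over 4 h (2140 to 6725) and 3374 at 4 d over 2 d (1470 to 5549). CEACAM6 at 4 d and CEACAM3 at 4 h rest on the fewest reads.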

Other observations

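The PSG genes, relatives of the CEACAMs in the same cluster, had 34 reads at 4 h, all of them in replicate 1, where 10 of the 11 genes had a read. None was found at 0 h, and 2 d and 4 d had 1 such read each. The same library held 10 of the 42 reads of CEACAM5 and 4 of the 6 of CEACAM7. It is also the library in which 22265 genes had a read. The 5 members had 187 (CEACAM1), 55 (CEACAM3), 106 (CEACAM4), 253 (CEACAM6) and 755 (CEACAM8) reads in it.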
